A study of Mus musculus with 6 samples.

Results

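Pga5, Gckr, Srgn and Pyy were followed through the differentiation of mouse embryonic stem cells (ESCs) to endoderm. The 4 genes were chosen by their expected counts, which were far higher in endoderm than in ESCs, so the difference between those populations is a description here and carries no test. They are 4 of the 24054 genes in the expression tables, and all 4 passed the filter on low counts that left 14539 genes for testing. RNA was measured in 3 populations with 2 replicates each. ESCs negative for both reporters were collected on day 0 (d0), Foxa2-Venus positive and Sox17-Cherry negative mesendoderm cells on day 3 (d3F), and endoderm cells positive for both reporters on day 5 (d5FS). All cells were sorted by FACS from a double knock-in ESC line, heterozygous for the Foxa2-Venus fusion and homozygous for the Sox17-Cherry fusion, which d0 cells carry too. The differentiation medium contained Wnt3a and Activin A. Since all samples came from this 1 line, the replicates carry no spread between genotypes, and since d3F and d5FS differ in both the day and the sorting gate, time and Sox17 status cannot be told apart. In sorted bulk samples, fewer cells that express a gene and less RNA per cell cannot be told apart.

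Pga5 encodes a pepsinogen, the inactive precursor of the acid protease pepsin, which is secreted into the stomach. Gckr encodes a regulatory protein of liver glucose metabolism and is not itself an enzyme. Srgn encodes serglycin, a small proteoglycan that carries glycosaminoglycan chains on a run of serine and glycine residues and packs proteins into secretory granules, best known in blood cells and also made by endothelium. Pyy encodes peptide YY, a satiety hormone of enteroendocrine cells and of the developing pancreas.

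The genes lie on 4 chromosomes of GRCm38. Pga5 spans chromosome 19 from 10668957 to 10678071 on the minus strand, Gckr chromosome 5 from 31297266 to 31327302 on the plus strand, Srgn chromosome 10 from 62493833 to 62527445 on the minus strand, and Pyy chromosome 11 from 102106676 to 102107832 on the minus strand (RefSeq, GRCm38.p6). The expression tables list 1 transcript per gene. The listed lengths of Gckr (2014 bases) and Srgn (938 bases) are those of GENCODE transcripts Gckr-201, with 19 exons, and Srgn-201, with 3 exons.

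The serine and glycine run that gives serglycin its attachment sites is shown first, because it is what defines the Srgn product. In Srgn-201 it fills codons 90 to 109 of 152 and holds 10 serine-glycine codon pairs, in coding sequence of exon 3. The 60 bases below lie at chr10:62494998-62495057 and are written 5′ to 3′ on the coding strand, with no part in capitals.
Srgn repeat: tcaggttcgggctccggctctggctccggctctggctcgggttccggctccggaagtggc

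Upstream sequence is shown next because the genes were high in the same sorted population. The 250 bases before the starts of Gckr, Srgn and Pyy held in a RefSeq promoter table (GRCm38.p6) were searched on both strands for 8 short motifs. These were TGTTTAC and, for Foxa factors too, TGTTTGC. For Gata factors they were AGATAA and also TGATAA. Sox factors were represented by ATTGTT, Hnf1 by the half-site GTTAAT, Hnf4 by AAGTCCA and the TATA box by TATAAA. No pair of these overlaps in the matches below. Capitals mark the matches. For Gckr this start is position 31297563, inside the gene span given above, and the bases before the outermost start were not searched. The Gckr stretch is the part that holds both of its matches, at chr5:31297504-31297529 on the plus strand. The Srgn stretch lies before the upstream start, at chr10:62527452-62527695 on the minus strand, and the Pyy stretch at chr11:102107833-102108082 on the minus strand.
Gckr: GTTAATcatctccatggctcAGATAA
Srgn: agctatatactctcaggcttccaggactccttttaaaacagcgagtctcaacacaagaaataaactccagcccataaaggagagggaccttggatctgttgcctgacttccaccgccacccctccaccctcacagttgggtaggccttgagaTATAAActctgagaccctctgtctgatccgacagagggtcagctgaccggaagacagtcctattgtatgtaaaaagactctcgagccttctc
Pyy: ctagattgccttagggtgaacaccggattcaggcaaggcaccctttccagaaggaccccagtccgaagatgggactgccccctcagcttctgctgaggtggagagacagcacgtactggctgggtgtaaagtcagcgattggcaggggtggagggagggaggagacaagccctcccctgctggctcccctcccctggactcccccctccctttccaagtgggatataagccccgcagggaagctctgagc
In Gckr, GTTAAT lay 59 to 54 bases and AGATAA 39 to 34 bases before position 31297563, within the first exon of the longer transcript Gckr-202. GTTAAT occurred in 6.43% and AGATAA in 9.99% of the 32851 RefSeq windows of this length. The Srgn window held TATAAA 98 to 93 bases before the start, as did 12.4% of windows. None of these letters was found in the Pyy windows or before the downstream Srgn start, from which the listed transcript begins. Only exact matches were counted, so the near match tataag close to the end of the Pyy stretch was not marked. TGTTTAC occurred in 3.17%, TGTTTGC in 4.3%, TGATAA in 7.94%, ATTGTT in 9.42% and AAGTCCA in 3.36% of all windows.

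The libraries held between 16457729 and 22768686 expected counts, where an expected count is the number of read pairs that RSEM assigned to a gene. A count of 0 then allows a level of up to 0.132 to 0.182 CPM (counts per 1000000 counts of the library), taken as 3 counts and depending on the library. All 6 values of each of the 4 genes were whole numbers. Foxa2 itself stood at 0.0452 and 0.27 CPM before differentiation (d0), at 76.9 and 45.8 in d3F cells and at 39.3 and 59.0 in d5FS cells. Sox17 stood at 0.769 and 0.449, then 5.14 and 13.9, then 58.1 and 102 CPM in the same order. Foxa2 RNA thus followed its gate, and Sox17 RNA was highest in the Sox17-Cherry positive cells. In the Sox17-Cherry negative d3F cells, Sox17 RNA was already above d0, by 3.91 ± 0.65 (log2, SE; adjusted p = 0.0173 in the edgeR fit). The 6 listed pluripotency genes (Pou5f1, Nanog, Sox2, Zfp42, Klf4 and Esrrb) all fell by d5FS and the 6 listed mesendoderm genes all rose in d3F. Of 7 definitive endoderm markers tested, 6 rose by d5FS. Over all tested genes, 12.4% were called higher and 10.4% lower by d5FS. The summed CPM of the 8 listed definitive endoderm markers was 84.1 to 305 in d0, 1050 to 1838 in d3F and 756 to 979 in d5FS. That sum was thus highest in d3F, but it does not describe the typical marker. From d3F to d5FS the median log2 change of the 7 tested markers was 0.88. Of these, 2 rose (Sox17 and Cer1) and 0 fell, against 1.08% and 0.461% of all tested genes. Replicates of 1 population differed by far more than counting noise, with a chi-square per degree of freedom of at least 85.0.

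Per kilobase, Pga5 had the highest mean RNA level of the 4 genes in every population. Its counts were 29 and 40 in the d0 samples, 202 and 524 in the d3F samples, and 13035 and 23618 in the d5FS samples. As CPM these were 1.31 and 1.80, then 8.87 and 25.3, then 792 and 1345. The populations did not overlap, and the lower d5FS sample was 31.3 times the higher d3F sample. Pooled over replicates, the CPM was 10.7 times higher in d3F than in d0 (95% counting interval 8.38 to 14.0) and 64.5 times higher in d5FS than in d3F (59.9 to 69.5). These intervals, and those below, cover counting error only and not the spread between replicates. On the log2 scale of the edgeR fit, the difference was 3.38 ± 0.63 (SE) for the first step and 5.92 ± 0.68 for the second. By level per kilobase (FPKM with TMM scaling), Pga5 reached 856 ± 352 (SD, n = 2) in d5FS and ranked 180 and 159 of the 14539 tested genes in the 2 samples. A gastric zymogen gene thus stood among the more abundant RNAs of these endoderm cells.

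Gckr was close to undetected in ESCs. Its d0 samples held 0 and 1 count, its d3F samples 13 and 40, and its d5FS samples 419 and 677. The CPM values were 0 and 0.0449, 0.571 and 1.93, and 25.5 and 38.6, with no overlap between populations. The pooled level in d3F was 54.1 times that in d0, with a wide counting interval of 9.30 to 2177 because d0 held 1 count. The level in d5FS was 26.4 times that in d3F (20.05 to 35.5). The fitted log2 differences were 5.40 ± 1.12 and 4.63 ± 0.69 (SE). Of the 4 genes, Gckr had the largest share of its d5FS level already in d3F, 3.91% of the mean CPM. Its level per kilobase in d5FS was 17.2 ± 5.79 FPKM (SD, n = 2).

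Srgn resembled Pga5 in the size of its 2 steps. Sorted d0 cells gave 2 and 0 counts, d3F cells 11 and 19, and d5FS cells 1153 and 838. The CPM values were 0.0905 and 0, then 0.483 and 0.919, then 70.1 and 47.7, and the populations did not overlap. The pooled level was 15.3 times higher in d3F than in d0 (95% counting interval 3.89 to 132) and 84.8 times higher in d5FS than in d3F (59.2 to 126). The fitted log2 differences were 3.72 ± 0.86 and 6.34 ± 0.58 (SE). In d3F, Srgn had reached 1.19% of its mean d5FS CPM, against 1.60% for Pga5. Per kilobase its d5FS level, 76.4 ± 17.0 FPKM (SD, n = 2), stood second to that of Pga5.

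Pyy varied most between the d5FS replicates. It had 2 and 2 counts in the d0 samples, none in either d3F sample, and 96 and 15 in the d5FS samples. The d0 and d3F samples could not be separated at this depth, since the pooled d3F to d0 ratio of 0 had a counting interval up to 1.55. The d5FS samples, at 5.83 and 0.854 CPM, were both above every other sample but lay 2.53 apart in log2 CPM. Only 0.64% of tested genes had a larger gap between the d5FS replicates. Against a floor of 3 counts over both d3F libraries, Pyy was at least 47.3-fold higher in d5FS, and at least 12.4-fold higher when d5FS replicate 1 was left out. Relative to d0 the pooled ratio was 36.2 (13.7 to 135). Per kilobase Pyy reached 10.5 ± 10.8 FPKM (SD, n = 2), so its order relative to Gckr was not resolved.

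**Figure D1:**
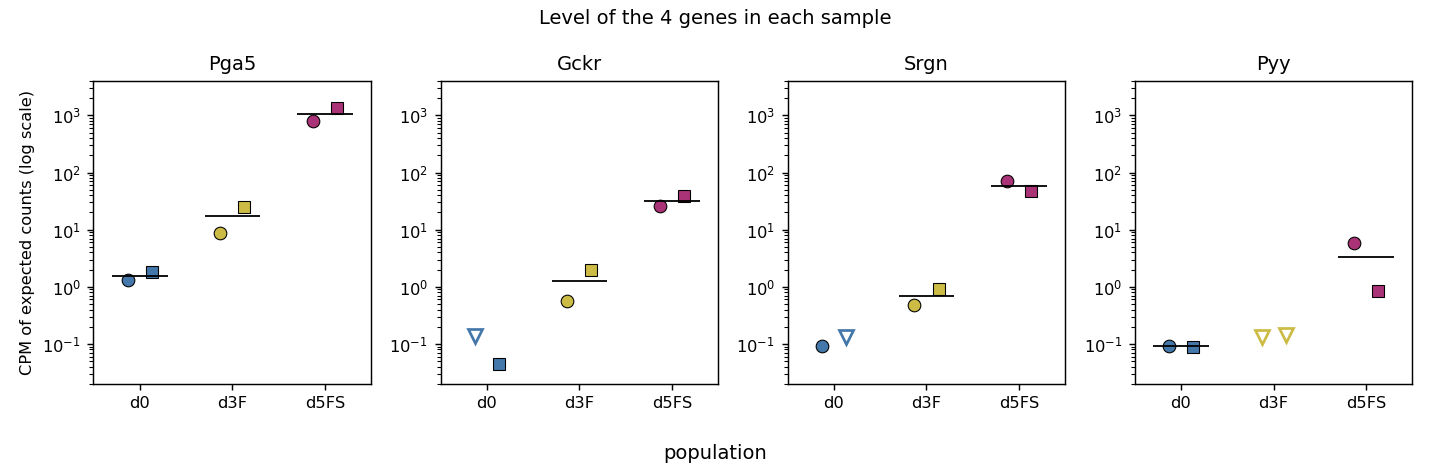
CPM of the expected counts (log axis) for Pga5, Gckr, Srgn and Pyy in each d0, d3F and d5FS sample, with circles for replicate 1, squares for replicate 2 and lines at the mean of 2 samples that both hold counts. Open triangles are samples with 0 counts, drawn at the level that 3 counts would give. Pga5, Gckr and Srgn separate all 3 populations, and Pyy is above its d0 samples in d5FS alone, at 5.83 and 0.854 CPM.

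The replicates of d3F showed a shared order in 3 of the genes. Replicate 2 was higher than replicate 1 for Pga5 (25.3 against 8.87 CPM), Gckr (1.93 against 0.571) and Srgn (0.919 against 0.483). The gaps for Pga5, Gckr and Srgn were exceeded by 2.43%, 2.06% and 12.4% of tested genes, so that of Srgn was common. Sox17 was also higher in d3F replicate 2, at 13.9 against 5.14 CPM, and the part of this in the 3 genes was not tested. In the study's list of libraries, 1 of the pair from each population carries the name mRNA and its partner totRNA, with no replicate number, and the part of this was not tested either.

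By the difference from d0 to d5FS, which chose these genes, Srgn ranked 3, Gckr 4 and Pga5 5 of the 14539 tested genes, and Pyy ranked 175. The fitted log2 differences were 10.06 ± 0.76 for Srgn, 10.03 ± 1.03 for Gckr, 9.30 ± 0.79 for Pga5 and 4.97 ± 1.13 for Pyy (SE). In this comparison 22.8% of all tested genes were called, at an adjusted p below 0.05 and a change of more than 1 on the log2 scale. Fgb, the fibrinogen beta chain, ranked just above the top 3 members and the glycosyltransferase gene Galnt15 just below them, both with 0 counts in d0. The values for Srgn and Gckr rest on 2 and 1 counts in d0, and leaving out 1 d0 library moved Srgn to 13.12 and Gckr to 12.32. With a larger prior count of 2 the values were 9.22 for Pga5, 8.61 for Srgn, 8 for Gckr and 4.07 for Pyy, so the order of the first 3 depended on this choice. Without d5FS replicate 1, Pyy stood at 3.10. On this scale Pyy lay well below the other members.

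Whether the second step was larger than the first was tested, because this difference of steps was not the measure that chose the genes. It uses the same d0 and d5FS values, and is independent of the choice only where both ends are equally precise. With d0 counts of 0 to 2, this did not hold for Gckr, Srgn and Pyy, so their tests are not free of the choice. Of all tested genes, 0.413% were called for a difference of steps. None of the 4 genes was called in the edgeR quasi-likelihood fit, with p-values adjusted by Benjamini and Hochberg's method over all tested genes, and 0 of 4 stands against that background. The second step exceeded the first by 2.53 ± 1.03 for Pga5 (log2, SE; adjusted p = 0.397) and by 2.63 ± 1.60 for Srgn (adjusted p = 0.662). For Gckr the difference of steps was -0.76 ± 1.34 (adjusted p = 0.952), and its sign turned without d0 replicate 1 (0.18) or d3F replicate 2 (1.70). That of Srgn turned without d0 replicate 1, to -0.46. For Pyy the fitted difference was 13.04 ± 3.63 (adjusted p = 0.203), a value that depends on the prior count since d3F held no counts. Pyy had also passed the filter through its d5FS counts alone, the population in which it was chosen for being high, so no call of its step difference is read as a result. DESeq2's Wald test gave 12.11 for it (adjusted p = 0.0169), or an adjusted p of 0.0915 when tested against a change of 1, and the fit without a filter on low counts gave 13.03 (adjusted p = 0.00049). For Pga5 the fit without a filter called the difference (2.48, adjusted p = 0.0108). At 2 replicates per population the timing of Gckr and Srgn was therefore not resolved between equal and unequal steps. For Pga5 the second step was the larger in every setting, by 1.29 to 4.67 with samples left out. That difference was called only without a filter, so the timing of Pga5 was not resolved either.

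**Figure D2:**
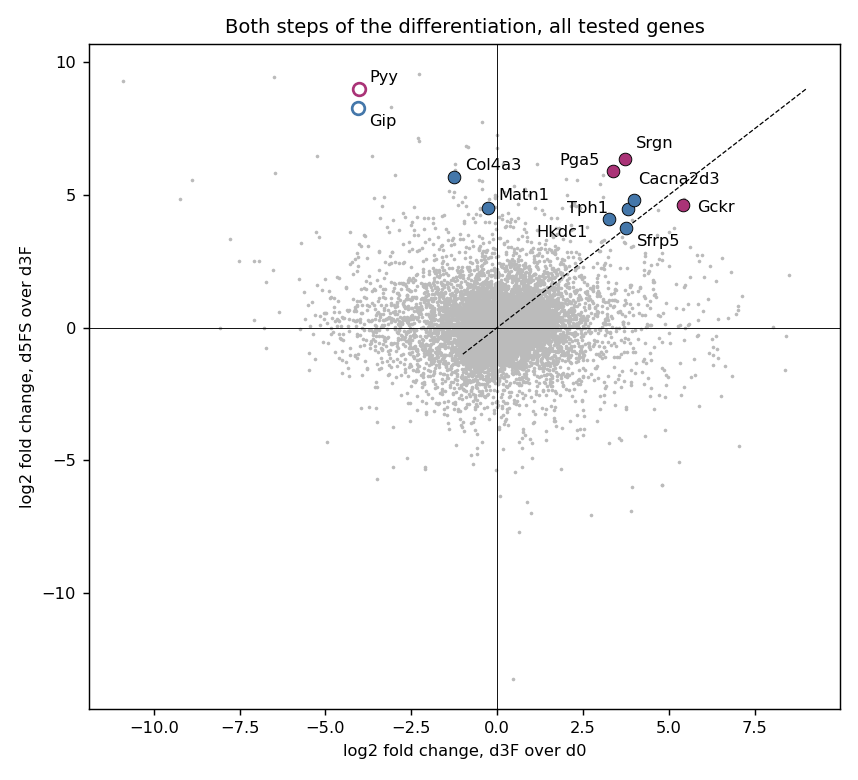
Log2 fold change from d0 to d3F (x axis) against that from d3F to d5FS (y axis) for the 14539 tested genes (grey), with the 4 genes in purple, genes of similar pattern in blue, open circles for Pyy and Gip whose d3F counts were 0, and a dashed line of equal steps. Pga5, Srgn and Gckr lie at the upper right, at 3.38 and 5.92, 3.72 and 6.34, and 5.40 and 4.63, while Pyy lies at the upper left.

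Genes of the most similar pattern were found by the distance between centred log2 CPM values over the 6 samples, which is a description. This distance contains the d0 to d5FS rise by which the members were chosen. How close the members lie to each other is therefore not independent of that choice. Pga5, Gckr and Srgn lay near each other, and Pga5 had Gckr (distance 1.49) and Srgn (1.67) as its nearest genes, followed by Cacna2d3 (1.67), a calcium channel subunit. The nearest gene to Gckr was Cacna2d3 (0.569), then Hkdc1 (1.09), a hexokinase, and Sfrp5 (1.22), a secreted Wnt antagonist. Srgn had Pga5 (1.67), Tph1 (1.79) and Cacna2d3 (1.86). Pyy stood apart from the other members, which ranked it 387 (Pga5), 601 (Gckr) and 232 (Srgn) by distance. Its own nearest genes were Col4a3 (1.03), a basement membrane collagen chain, Matn1 (1.06), a matrix protein gene, and Gip (1.15), an incretin hormone gene.

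Few other gastric genes were detected well enough to be tested beside Pga5. Of 16 other genes listed for stomach glands and mucosa 3 were tested, as were 3 of 8 other aspartic proteases, and 0 of them were called in any of the 3 comparisons, a count too small to set against the shares over all genes. Among all tested genes, 4.7% were called over the first step (2.8% higher and 1.9% lower in d3F) and 1.54% over the second (1.08% higher and 0.461% lower in d5FS). Between d5FS and d0, 12.4% were called higher and 10.4% lower. Pgc, the other pepsinogen gene, had 16 and 41 counts in ESCs, 4 and 1 in d3F cells, and 5 and 6 in d5FS cells. Its d0 to d5FS difference of -2.13 ± 0.81 missed the threshold (adjusted p = 0.0889). Ctse, cathepsin E of gastric mucosa, had a total of 1 count over the 6 samples. Ctsd, the lysosomal aspartic protease found in most cells, stood at 202 and 209 CPM in d0 and 393 and 508 in d5FS, with a difference of 1.01 ± 0.39 (adjusted p = 0.0934).

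Among genes of glucose handling, set beside Gckr, the hexokinase gene Hkdc1 rose. Of 15 tested genes of glucose phosphorylation, transport and glycogen handling, 0 were called over the first step, 1 rose over the second, and 4 rose and 1 fell between d0 and d5FS. The list's median change was 0.93 from d0 to d5FS, against 0.017 over all tested genes. In the 3 comparisons, 4.7%, 1.54% and 22.8% of all tested genes were called. Hkdc1 had 4 and 9, then 29 and 97, then 607 and 1194 counts. It rose by 4.09 ± 0.71 from d3F to d5FS (adjusted p = 0.0373, lost without d3F replicate 1 or either d5FS replicate, range 3.38 to 5.43) and by 7.34 ± 0.88 from d0 to d5FS (adjusted p = 0.00262, called in all 11 alternative settings). The other genes that rose by d5FS were Ppp1r3b, a glycogen-targeting phosphatase subunit (2.64 ± 0.49), Pygl, liver glycogen phosphorylase (2.24 ± 0.46), and G6pc3, a broadly expressed glucose-6-phosphatase (2.11 ± 0.35). Ppp1r3b and Pygl lost the call without d5FS replicate 1, at a lowest value of 2.15 and 1.94 over all settings. Pygl and G6pc3 also lost it in DESeq2's Wald test against a log2 change of 1. Hk2, the hexokinase with the highest level per kilobase in ESCs (43.0 FPKM), fell by 1.05 (SE 0.31, adjusted p = 0.044, lost in 6 of 11 settings). Hk1 was not called, with a difference of 1.26 ± 0.70.

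Of 27 tested chain synthesis genes, 2 rose and 0 fell over the first step, 0 were called over the second, and 5 rose and 1 fell between d0 and d5FS. Their median change from d0 to d5FS was 0.58, against 0.017 over all tested genes. Among all tested genes, 4.7%, 1.54% and 22.8% were called in these 3 comparisons, so the d0 to d5FS count was near that share. Chst15, which adds a further sulfate to chondroitin sulfate, stood at 9.23 and 2.43 CPM in ESCs, at 75.6 and 48.8 in d3F cells and at 77.6 and 134 in d5FS cells, and rose by 3.36 ± 0.58 from d0 to d3F (adjusted p = 0.0196, lost without d3F replicate 2). Chst11, a chondroitin 4-O-sulfotransferase, rose by 2.89 ± 0.49 from d0 to d3F (adjusted p = 0.0177, lost without d0 replicate 2 or d3F replicate 2). Both were called from d0 to d5FS in all 11 settings, at 4.14 ± 0.60 and 3.41 ± 0.50. Chsy3, a chondroitin synthase, rose by 3.93 ± 0.72 by d5FS (adjusted p = 0.00872, lost without d5FS replicate 1), and B3gat3, which completes the linker to the core protein, by 1.48 ± 0.40 (adjusted p = 0.0307, lost in 5 of 11 settings). These chain enzymes also act on other proteoglycans. Of 18 listed granule cargo genes, mostly proteases and cytotoxic proteins that serglycin packs in blood cells, 3 were tested and 0 were called, and counts this few do not show absence or presence of a change. The tested genes were Plat, tissue plasminogen activator (134 and 45 counts in ESCs, 110 and 153 in d3F cells, 251 and 149 in d5FS cells), Mmp9, a matrix protease (54 and 53, 101 and 124, 142 and 46), and Tnf, a cytokine.

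Srgn is a common blood and endothelial gene, so markers of those cells were set beside it. The summed CPM of 14 blood markers was 31.8 to 34.9 in d0, 12.2 to 24.5 in d3F and 25.4 to 33.9 in d5FS. In d5FS, Ptprc, the pan-leukocyte marker, had 0 and 2 counts, and Pf4, Fcer1g and Hbb-y had 0 in both samples. Other blood markers were detected there, among them Itga2b of platelets with 55 and 27 counts (27 and 35 in d0), Csf1r of macrophages with 21 and 11 (1 and 6 in d0) and Laptm5 with 40 and 39 (190 and 296 in d0). Of 6 blood markers tested, Gata1, an erythroid regulator, rose by 4.67 ± 0.95 from d0 to d5FS and 3 fell. Over all tested genes 12.4% were called higher and 10.4% lower. The summed CPM of 8 endothelial markers was 57.7 to 67.3 in d0 and 46.4 to 56.2 in d5FS, and Pecam1 fell by 2.85 (SE 0.54, adjusted p = 0.00966). The part of blood or endothelial cells in the level of Srgn was not tested.

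Markers of extraembryonic endoderm and of fibroblasts were also higher in d5FS. Of 8 visceral endoderm markers, 5 rose from d0 to d5FS (Afp, Ttr, Cubn, Apoa1 and Apob), and the sum over the list was 268 to 541 CPM in d5FS, 138 to 179 in d3F and 114 to 379 in d0, so that the sums of d0 and d5FS overlapped. Afp stood at 6.56 and 25.1 CPM in d5FS and at no more than 0.136 elsewhere. Of 8 parietal endoderm markers 6 rose, with a summed CPM of 2017 to 2271 in d5FS against 347 to 478 in d0. Of 7 tested fibroblast markers 4 rose (Col1a1, Col1a2, Col3a1 and Postn), with a list sum of 196 to 252 CPM in d5FS against 10.9 to 15.3 in d0. The other listed genes, Thy1, Lum, Dcn and Pdgfrb, were not called or not tested, and Lum had 0 counts in both d5FS samples. Among all tested genes, 12.4% were called higher in d5FS than in d0. By the study's methods, feeder fibroblasts were depleted before differentiation, and the d5FS gate kept cells positive for both reporters. The part of feeders in the fibroblast markers was not tested. The part of extraembryonic endoderm or fibroblasts in the levels of the 4 genes was not tested either.

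Pyy was accompanied by few members of its hormone family. Ppy, the pancreatic polypeptide gene next to it, had a total of 1 count over the 6 samples. Npy, the neuropeptide of the family, had 3 and 1, 13 and 7, and 4 and 0. The receptors Npy1r, Npy2r, Npy4r and Npy5r had at most 18 counts in any sample and were not tested. Dpp4, the peptidase that trims circulating peptide YY, was the 1 tested gene of this list. It stood at 3.30 and 10.2 CPM in ESCs, 0.132 and 1.31 in d3F cells, and 17.5 and 18.7 in d5FS cells. Its d3F to d5FS difference of 4.60 ± 0.98 missed the threshold (adjusted p = 0.0635).

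Among other gut hormone and serotonin genes, 4 of 14 were tested. That is too few to set against the 12.4% of all tested genes called higher by d5FS. Tph1 was called higher by d5FS, and the call of Gip is not read as a result. Gip had 1 and 3 counts in ESCs, none in either d3F sample, and 47 and 20 in d5FS cells. As for Pyy, d5FS was highest and d0 and d3F could not be separated at this depth. Gip had also passed the filter through its d5FS counts alone, so no call of it is read as a result. The fitted difference of Gip from d0 to d5FS was 4.23 ± 0.92 (SE), with values from 3.49 to 5.27 over 11 settings. Tph1, which makes the serotonin precursor in gut endocrine cells, had 8 and 3, then 73 and 89, then 1565 and 1319 counts. It rose by 3.82 ± 0.48 and then by 4.46 ± 0.41 (adjusted p = 0.0103 and 0.0102), called in all 11 settings for the first step and in all but that without d3F replicate 1 for the second. Ins2, an insulin gene, had 29 and 6 counts in d5FS against at most 2 elsewhere, below the filter.

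**Figure D3:**
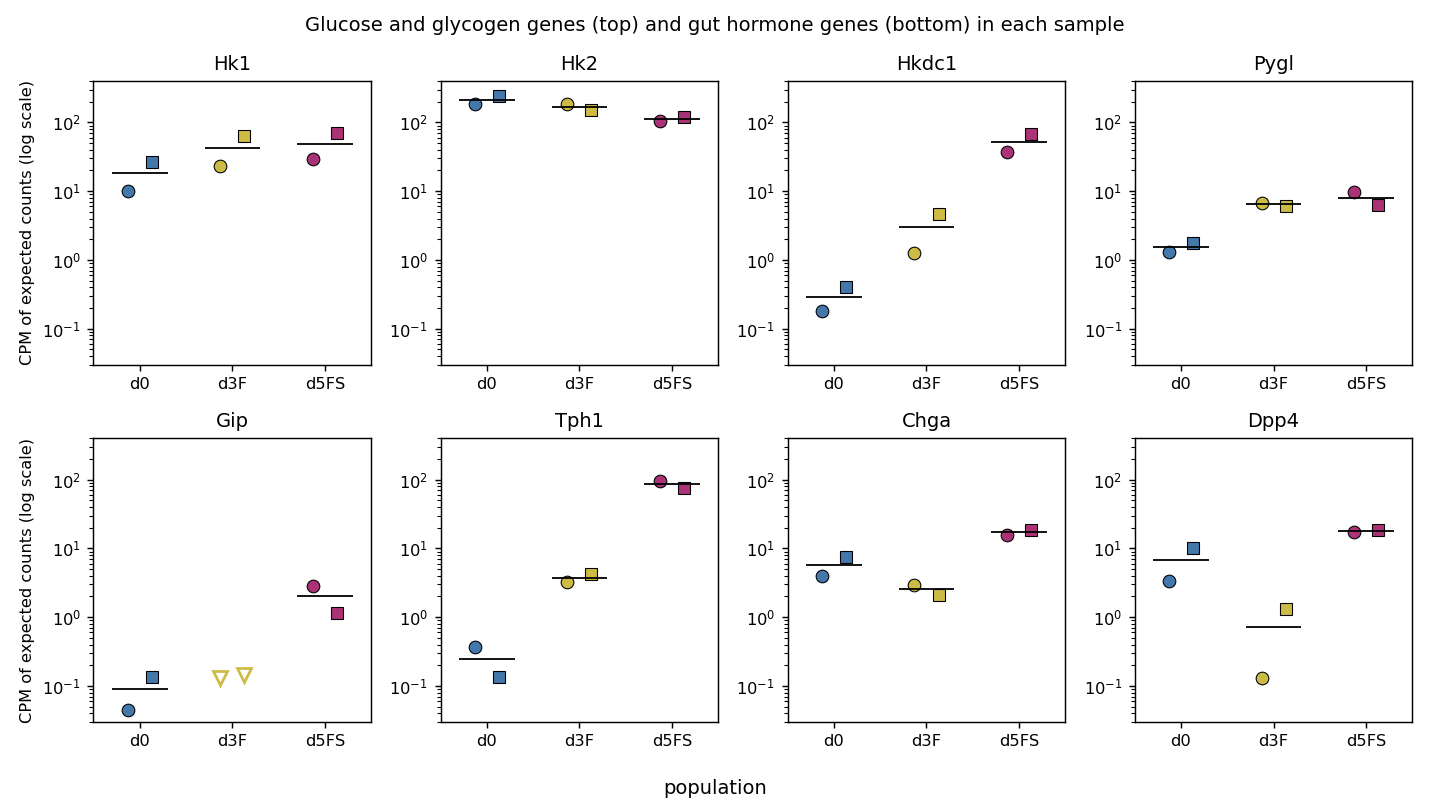
CPM of the expected counts (log axis) in each sample for the hexokinase genes Hk1, Hk2 and Hkdc1 and the glycogen phosphorylase gene Pygl (top) and for Gip, Tph1, Chga and Dpp4 (bottom), drawn as in the plot of the 4 genes. Hkdc1 and Tph1 are higher at each stage, Dpp4 is lowest in the d3F samples, and Gip is above the level of 3 counts in the d5FS samples alone.

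The genes that process and store peptide hormones changed in both directions. Of 12 tested, 1 rose and 1 fell over the first step, 1 rose over the second, and 4 rose and 2 fell between d0 and d5FS. The shares called over all tested genes were 4.7%, 1.54% and 22.8%. Pcsk5, a proprotein convertase, rose by 6.63 ± 0.89 from d0 to d3F (adjusted p = 0.0103) and was called in all 11 settings. Pcsk6, a related convertase, fell by 3.20 (SE 0.50) from d0 to d5FS. Pam, which amidates peptide ends such as that of peptide YY, rose by 2.29 ± 0.53 (adjusted p = 0.0193). That call was lost without d0 replicate 2 or d5FS replicate 1, and in DESeq2's Wald test against a log2 change of 1. The neuroendocrine convertases were low in d5FS. Pcsk1 had 57 and 9 counts there and Pcsk2 had 1 and 4, and Pcsk2 fell by 4.29 (SE 1.33, adjusted p = 0.0497), with 123 counts in d0 replicate 1 and 8 in replicate 2. That call was lost in 7 of 11 settings, d0 replicate 1 left out among them, with values from -5.53 to -1.50. Chga, a granule protein of endocrine cells, rose by 2.75 ± 0.49 from d3F to d5FS (adjusted p = 0.0392, lost in 5 of 11 settings, including each d3F and d5FS library left out). It stood at 4.03 and 7.59 CPM in ESCs, 2.94 and 2.13 in d3F cells, and 15.7 and 18.5 in d5FS cells. The d0 to d5FS difference of Chga, 1.41 ± 0.46, was not called (adjusted p = 0.0584). Of 6 tested endocrine transcription factors, Rfx6 rose by 3.75 ± 0.90 by d5FS (lost without either d5FS replicate, range 2.87 to 6.73 over 11 settings, with 71 and 4 counts in the d0 replicates) and Neurod1 and Insm1 fell by 4.51 (SE 0.98) and 3.40 (SE 0.58). Neurod1 lost the call without d0 replicate 1 or either d5FS replicate, with values from -5.21 to -3.05, and Insm1 lost it without d5FS replicate 1.

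Over all 9 lists together, 73 of 137 genes other than the 4 were tested. Of these, 9.59% were called over the first step, 5.48% over the second and 30.1% between d0 and d5FS, against backgrounds of 4.7%, 1.54% and 22.8% of all tested genes. The shares over the second step and between d0 and d5FS include Gip, whose calls are not read as a result. The median change from d0 to d5FS was 0.82 over the listed genes.

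Some of the chromosomal neighbours changed as well. Taking 5 protein-coding genes on each side gave 40 neighbours, of which 33 were tested. Of these 2 were called over the first step and 2 over the second, 6.06% each against backgrounds of 4.7% and 1.54%. Between d0 and d5FS 15 were called (11 higher and 4 lower), or 45.5% against the background of 22.8%. Without either d5FS replicate, fewer neighbours and fewer of all genes were called between d0 and d5FS, and the shares were not compared there. The closest genes to Pga5 were Vwce, 2.7 kb away, and Vps37c, 10.7 kb away, which rose by 3.88 ± 0.76 (lost without d5FS replicate 1) and 3.01 ± 0.46. Fndc4, a secreted fibronectin domain protein gene 1.3 kb from Gckr, stood at 15.5 and 8.63 CPM in ESCs, 34.1 and 50.4 in d3F cells, and 183 and 218 in d5FS cells. It rose by 3.97 ± 0.40 in all (adjusted p = 0.00173, called in all 11 settings). The genes on either side of Srgn, Vps26a and 2510003E04Rik, were not called, at 0.72 ± 0.28 and 0.25 ± 0.32. Hkdc1, described above for its likeness to Gckr, lies 70.1 kb from Srgn. Beside Pyy, Ppy was at 0 in d5FS and Nags, 37.7 kb away and an enzyme gene of the urea cycle, fell by 2.84 (SE 0.82, adjusted p = 0.0395, lost in 8 of 11 settings).

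**Figure D4:**
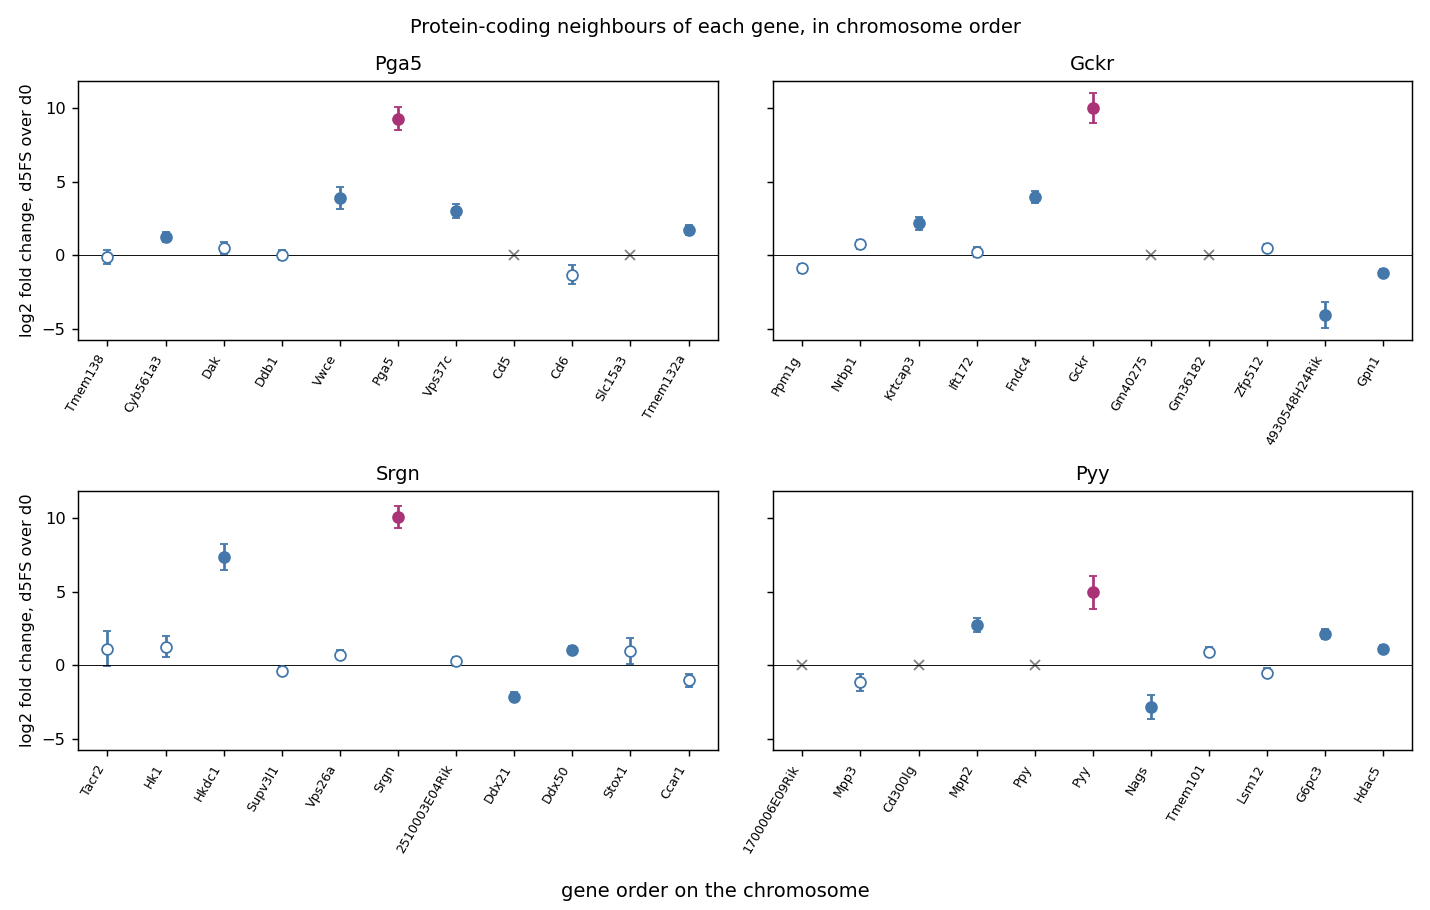
Log2 fold change from d0 to d5FS (y axis, error bars SE of the edgeR fit) of each of the 4 genes (purple) and its 5 protein-coding neighbours on each side (blue) in chromosome order. Filled points were called, open points were not, and grey crosses at 0 mark genes that were not tested. The 4 genes stand at 9.30, 10.03, 10.06 and 4.97, above each of their neighbours.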

How the data were processed

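RNA-seq of the 3 populations was made from ribosomal RNA-depleted RNA as paired-end reads. The authors aligned reads to mm10 with STAR and quantified genes with RSEM. Versions, annotation release and whether counting used strand are not given in the sources used here. The deposited files hold expected counts and TPM per gene. TPM was not used for tests, since 1 short noncoding RNA took 18.1% to 33.0% of it in each sample, and the deposited effective lengths served for FPKM.

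Expected counts were rounded and tested with edgeR 4.0.16 (R 4.3.3; TMM, filterByExpr, quasi-likelihood, 1 mean per population, 3 residual degrees of freedom, prior count 0.125), with p-values adjusted by Benjamini-Hochberg over 14539 genes. Genes were called at an adjusted p below 0.05 and an absolute log2 change above 1. DESeq2 1.42.0 was an alternative. The pipeline was tested on simulated data. Ratios of pooled counts have exact conditional 95% intervals.

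The 4 genes and all lists were chosen with earlier results of these data known. Named were the 4 genes, their 3 nearest patterns, up to 4 called genes of largest change per list and comparison, fixed partners (such as Hk1, Ppy, Dpp4 and the Npy receptors) and immediate neighbours. Other genes were named after their values were seen, and 1 fixed partner is not reported here. GENCODE M21 and RefSeq GRCm38.p6 gave positions and sequences. The study names both samples of a population biological replicates. Groups of 2 allow no exact permutation p below 0.33.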

Additional observations from a re-analysis of the deposited data

How the results depend on the processing

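With 2 samples per population, 3 residual degrees of freedom and d0 counts of 0 to 2 for Gckr, Srgn and Pyy, the counts of calls depended strongly on the setting, and the cause was not tested. Genes called for a difference of steps numbered 60 in the report, 568 by DESeq2's Wald test, 184 by its test against a log2 change of 1, 908 without a filter and 0 to 208 with each sample left out in turn. From d0 to d3F the count of 683 became 1486, 383, 1933 and 97 to 977 in the same order. From d3F to d5FS the 224 became 1057 by the Wald test, 1423 without a filter and 0 to 496 with samples left out (0 without d3F replicate 1). From d0 to d5FS the 3313 became 1006 by the test against 1, and 1047 to 3037. Called list genes (7, 4 and 22 in the 3 comparisons) became 15, 7 and, by the test against 1, 11, and without a filter 19, 9 and 36, with ranges of 2 to 12, 0 to 6 and 9 to 23 when samples were left out. Called neighbours (2, 2 and 15) became 6 and 6 by the Wald test, 0, 1 and 7 by the test against 1, 7 and 6 without a filter in the first pair of comparisons, and 0 to 3, 0 to 2 and 8 to 11 with samples left out. The difference of steps ranged with samples left out from 1.29 to 4.67 for Pga5, from -3.05 to 1.70 for Gckr (0.18 without d0 replicate 1 and 1.70 without d3F replicate 2), from -0.46 to 3.86 for Srgn (-0.46 without d0 replicate 1) and from 11.23 to 13.90 for Pyy. It was called for Pga5 without a filter (2.48) and for Pyy by the Wald test (12.11) and without a filter (13.03).

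Samples with the same replicate number deviated together (r = 0.314, 0.324 and 0.278 across 14539 genes), but the labels give no shared origin and there are only 2 numbers. A fit that took the replicate number as its block called 172 genes for a difference of steps, 1320 over the first step and 918 over the second, with 15 and 7 list genes and 6 and 5 neighbours. The block called none of the 4 genes for a difference of steps. Among the listed genes it added 8 calls over the first step, 3 over the second and 9 between d0 and d5FS, and removed 1 (Pcsk2). Added calls included Hk1 (first step, and d0 to d5FS), Dpp4 (both steps), Ctsd (second step) and Bace1 (d0 to d5FS), which the report gives as not called or does not name. Settings added after the data were seen left out each d5FS sample for the lowest fold of Pyy, which was 12.4 and 84.5.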
